A study of Mus musculus with 24 samples.

Results

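Abtb1, Lactb, Tor2a, Tspoap1, Zfp385a, Tmem123 and Ublcp1 are 7 mouse genes whose RNA was lower in fetal liver cells given the microRNA miR-125b than in cells given a control construct, in at least some of the conditions sampled. They were chosen by name out of 47069 genes in the count table, because they had been lower with miR-125b or in libraries labelled doxycycline withdrawal. That rule names no day. Earlier results of these data singled the genes out in miR-125b against control at day 10 and at day 13 after withdrawal, and in withdrawal against continued doxycycline in miR-125b cells, so those values are given below as a description with no test. Day 2 is not excluded by the rule, so its values are no independent support either. All 7 genes passed the filter on low counts, which left 13419 genes.

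The cells came from fetal liver at E12.5-13.5 of a B6J.129(Cg) strain with the allele tm1.1 at Gt(ROSA)26Sor, named (CAG-cas9*,-EGFP)Fezh/J, which carries Cas9 and EGFP under the CAG promoter. Cells of every group, controls included, carried the guide construct sgGata1, and the study calls them Gata1s cells after the short form of the blood transcription factor GATA1. The second transgene was miR-125b or the control miR-ctrl. Each arm was sampled after 48 h of doxycycline (day 2), after 10 days of it (day 10), after 13 days of it (day 13 continued), and on day 13 with doxycycline withdrawn on day 10. The dose was 1 µg/mL, and the labels of the withdrawal groups give none. That makes 8 groups of 3 libraries, 24 in all, each with 14694900 to 23755245 counted reads. The labels do not say which element doxycycline drives, whether the cells were a clone or pooled from several embryos, or whether replicates were separate cultures. P-values therefore measure only the spread between these libraries, which may be technical.

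MicroRNAs are short RNAs that guide the silencing complex to messenger RNAs. The bases at positions 2 to 8 of the microRNA, called the seed, pair with a matching stretch, most often in the 3′ UTR of the messenger, and the messenger is then degraded or translated less. miR-125b is abundant in blood stem and progenitor cells, and its gene on human chromosome 21 has been linked to the megakaryoblastic leukemia of children with Down syndrome, in which GATA1s is the typical lesion.

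The mature miR-125b is shown first because its seed, in capitals, defines the matches searched. miR-125a and miR-351, which follow, have the same seed, so the same sites would match them. The sequences are those of RefSeq, written 5′ to 3′.
mmu-miR-125b-5p: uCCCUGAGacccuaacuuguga
mmu-miR-125a-5p: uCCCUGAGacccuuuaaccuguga
mmu-miR-351-5p: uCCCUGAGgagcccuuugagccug

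The match to the seed is CTCAGGG, searched on the sense strand of each annotated messenger, and a match followed by A (CTCAGGGA) is called an 8-base site. Of the 7 genes, 5 held a match in their longest annotated 3′ UTR, and 4 of these were 8-base sites. Among the 11665 tested genes with an annotated 3′ UTR, 15.9% held at least 1 match and 5.6% an 8-base site. Tspoap1 and Ublcp1 held none there, so the name of seed-match genes applies to 5 of the 7 only. Because the genes were grouped under that name, shares of matches here and below are a description and no independent support. The windows below show each site, in capitals, with its neighbouring bases on the messenger strand (GRCm38 coordinates).
Abtb1, chr6:88836071-88836100, minus strand: tggggcaggcaccaCTCAGGGAaaactggg
Lactb, chr9:66955445-66955474, minus strand: attagttctttacaCTCAGGGAaataacag
Tor2a, chr2:32761988-32762017, plus strand: aatgtgaacggcaaCTCAGGGAcgaaggct
Zfp385a, chr15:103314787-103314816, minus strand: ggaacaccccagatCTCAGGGAaccccgcc
Tmem123, chr9:7793345-7793374, plus strand: atactcaggtcaaaCTCAGGGccaggttta

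Longer UTRs hold matches more often, so each site was set beside UTRs of 0.8 to 1.25 times the length of its own. Abtb1 has the shortest 3′ UTR of the 5, with 332 bases, and its site starts at base 160. Of UTRs of similar length, 4.77% held a match and 1.97% an 8-base site. For Tor2a, with 504 bases and the site at base 262, the shares were 7.3% and 1.92%, but only 1 of its 2 coding transcripts contains the site. The Lactb site lies at base 634 of 706, where 10.2% of similar UTRs held a match. Zfp385a has its site at base 193 of 1100, and 13.7% of similar UTRs held a match. In Tmem123 the match lies at base 1164 of 2138, a length at which 21.9% of UTRs held one. The Tmem123 messenger also holds 1 match in its coding sequence and 1 in its 5′ UTR.

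The surroundings of the 5 sites differed. Over 30 bases on each side, A and U made up 76.7% around the Lactb site and 68.3% around the Tmem123 site, above the upper quartile of 55.0% over the 2264 matches of all tested genes. Zfp385a, with 31.7%, and Tor2a, with 40.0%, lay below the lower quartile of 43.3%. Abtb1, with 48.3%, was at the median. None of the 5 sites had more than 1 pairing base opposite bases 13 to 16 of miR-125b, counted without gaps, and 3.7% of all matches had 3 or 4.

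**Figure D1:**
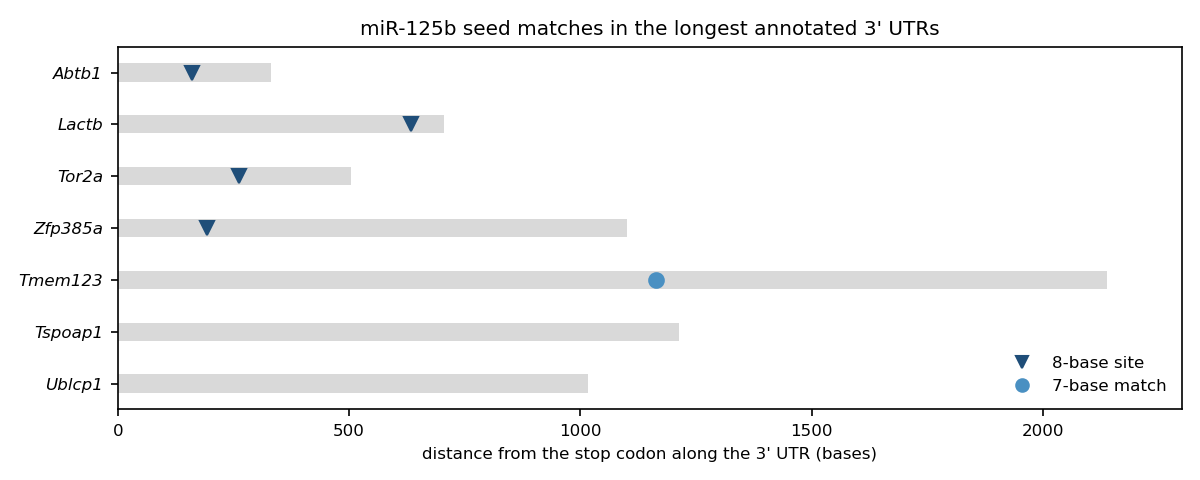
3′ UTRs of the 7 genes to scale (x axis: bases from the stop codon), with each match to the miR-125b seed marked. Abtb1, Lactb, Tor2a and Zfp385a have 1 8-base site each, Tmem123 has 1 match without the A, and Tspoap1 and Ublcp1 have none.

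The 2 genes without a 3′ UTR match differ from each other. Tspoap1 has a long coding sequence of 5541 bases with 2 matches, and 50.4% of coding sequences of similar length held at least 1. Its 3′ UTR of 1214 bases held none, and 14.8% of UTRs of similar length held one. Ublcp1 held no match in its 3′ UTR of 1017 bases, its coding sequence or its 5′ UTR, and no match to seed bases 2 to 7 in its 3′ UTR. The coding matches of Tspoap1 are shown because they are the only ones in that messenger.
Tspoap1, chr11:87761470-87761499, plus strand: ctggcagcactggaCTCAGGGccaggggtg
Tspoap1, chr11:87775263-87775292, plus strand: ggctcagatcccatCTCAGGGgccttggga

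The levels of miR-125b itself were not measured. The genes Mir125b-1, Mir125b-2, Mir125a and Mir99ahg had 0 counts in every library, and Mir351 had 33 counts in all. A library with 0 counts allows up to 3. Gata1, the edited gene, had 194 to 514 CPM (counts scaled to a common library size with TMM factors) over the 24 libraries, and gene totals do not separate its full-length from its short form, so they do not check the editing. The cells had 2985 to 8136 CPM over 15 megakaryocyte markers. The sums were 269 to 474 CPM over erythroid markers, with Slc4a1 at 0, and 2.0 to 4.88 CPM over hepatocyte markers, with Ttr, Serpina1a, Fgb and Ahsg at 0.

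The libraries labelled day 13 in the miR-125b arm stood out among the results, so they are named by their labels throughout. Arid3a, the miR-125b target in the series title, had 31.2 ± 4.45 CPM (SD, n = 3) in the libraries labelled withdrawal and 69.4 ± 6.20 in their controls, and it was 52.2 ± 6.14 against 61.0 ± 11.2 in the libraries labelled continued. The distance of Arid3a from control was thus larger under the withdrawal label. Tspoap1 was below control without overlap under both labels, by -1.03 in continued and -1.39 in withdrawal libraries. Whether the labels are right was not tested and cannot be told from the counts of miR-125b genes.

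Per kilobase of exon, Zfp385a was the most abundant of the 7 genes, with a mean of 154 CPM per kb over the libraries, followed by Tmem123 with 102. Abtb1 had 12.9, Tspoap1 12.5, Lactb 10.9, Tor2a 6.81 and Ublcp1 3.14. Raw counts were lowest for Ublcp1, with 74 to 260 per library, and highest for Zfp385a, with 4444 to 10194, so the values of Ublcp1 carry the most counting error.

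Zfp385a is a zinc finger protein, also called Hzf, that is needed for the alpha granules of megakaryocytes and platelets and acts as a partner of p53. The gene is on chromosome 15 (103313895 to 103340093, minus strand, ENSMUSG00000000552). In control libraries Zfp385a had 420, 530 and 478 CPM in replicates 1, 2 and 3 at day 2, 412, 522 and 444 at day 10, 370, 435 and 413 at day 13, and 356, 459 and 438 after withdrawal. In miR-125b libraries it had 292, 370 and 359 CPM at day 2, 284, 375 and 254 at day 10, 356, 466 and 413 in those labelled continued, and 246, 335 and 272 in those labelled withdrawal. The 3 miR-125b groups of day 2, day 10 and withdrawal were below their controls without overlap, while the group labelled continued overlapped its controls throughout. The log2 differences from control were -0.48 ± 0.15 (SE) at day 2, -0.59 at day 10, 0.02 in continued and -0.55 in withdrawal libraries.

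Abtb1 encodes an adaptor protein with ankyrin repeats and BTB domains. Its locus is on chromosome 6 (88835914 to 88841984, minus strand, ENSMUSG00000030083). Control libraries had 64.1, 74.7 and 66.9 CPM of Abtb1 at day 2, 65.8, 106 and 75.5 at day 10, 60.1, 80.2 and 89.6 at day 13, and 57.0, 86.4 and 86.8 after withdrawal. In miR-125b libraries Abtb1 had 46.7, 47.1 and 50.3 CPM at day 2, 57.5, 59.1 and 59.2 at day 10, 48.3, 58.9 and 68.6 in those labelled continued, and 30.3, 35.8 and 30.9 in those labelled withdrawal. The withdrawal group was the lowest of the 8 and did not overlap the next group, miR-125b cells at day 2. The difference from control was -0.51 ± 0.18 at day 2, -0.49 at day 10, -0.39 in continued and -1.25 in withdrawal libraries, and the continued and control libraries of day 13 overlapped.

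Lactb is a mitochondrial protein that forms filaments and has been described as a tumour suppressor. It lies on chromosome 9 (66955388 to 66975484, minus strand, ENSMUSG00000032370). Its control values were 25.5, 30.3 and 26.5 CPM at day 2, 27.2, 29.2 and 22.9 at day 10, 23.8, 30.7 and 19.8 at day 13, and 28.7, 27.1 and 21.2 after withdrawal. Its miR-125b values were 22.7, 21.6 and 23.3 CPM at day 2, 11.2, 19.2 and 13.1 at day 10, 21.5, 24.1 and 20.1 in continued, and 14.1, 14 and 14.6 in withdrawal libraries. Day 10 and withdrawal in miR-125b cells were the lowest groups and overlapped each other, and both were below every other group. Relative to control, Lactb differed by -0.28 ± 0.17 at day 2, -0.86 ± 0.18 at day 10, -0.18 in continued and -0.85 in withdrawal libraries.

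Tor2a belongs to the torsins, ATPases of the endoplasmic reticulum. The gene is on chromosome 2 (32757234 to 32762244, plus strand, ENSMUSG00000009563) and shares 403 exon bases with Ttc16 on the opposite strand, whose own count was at most 9 in a library. Tor2a had 20.2, 28.4 and 25.1 CPM in control libraries at day 2, 23.5, 23.7 and 24.6 at day 10, 20.3, 24.9 and 22.1 at day 13, and 25, 23.8 and 21.6 after withdrawal. In miR-125b libraries Tor2a had 19.6, 19.6 and 24.4 CPM at day 2, 15.9, 17.5 and 12.4 at day 10, 19.3, 21.8 and 20.5 in continued, and 13.7, 15.8 and 14.7 in withdrawal libraries. Like Lactb, it was lowest at day 10 and in withdrawal libraries, both below every other group. The differences from control were -0.21 ± 0.14 at day 2, -0.65 at day 10, -0.13 in continued and -0.67 in withdrawal libraries.

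Tmem123, also called porimin, is a mucin-like membrane receptor linked to a form of cell death with swelling. Its locus is on chromosome 9 (7764041 to 7794333, plus strand, ENSMUSG00000050912). Control libraries had 341, 357 and 381 CPM of Tmem123 at day 2, 284, 340 and 330 at day 10, 342, 337 and 359 at day 13, and 330, 335 and 361 after withdrawal. The miR-125b libraries had 269, 303 and 270 CPM at day 2, 273, 303 and 294 at day 10, 337, 338 and 365 in continued, and 264, 271 and 258 in withdrawal libraries. Day 2 and withdrawal values were below their controls without overlap, and at day 10 the groups overlapped. The differences from control were -0.36 ± 0.08 at day 2, -0.13 at day 10, 0.00 in continued and -0.37 in withdrawal libraries.

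Tspoap1 is a scaffold protein that binds the mitochondrial translocator protein TSPO and belongs to the RIM-binding proteins. It lies on chromosome 11 (87760541 to 87785928, plus strand, ENSMUSG00000034156). In control libraries Tspoap1 had 166, 136 and 127 CPM at day 2, 122, 141 and 92.0 at day 10, 161, 167 and 142 at day 13, and 126, 211 and 120 after withdrawal. In miR-125b libraries it had 126, 94.9 and 91.3 CPM at day 2, 124, 137 and 153 at day 10, 47.1, 108 and 75.1 in continued, and 54.3, 72.8 and 47.6 in withdrawal libraries. Its order of groups was unlike that of the other 6 genes, with day 10 overlapping control and both day 13 groups of miR-125b cells below control without overlap. The differences were -0.46 ± 0.26 at day 2, 0.22 at day 10, -1.03 in continued and -1.39 in withdrawal libraries.

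Ublcp1 is a phosphatase with a ubiquitin-like domain that acts on the nuclear proteasome. It lies on chromosome 11 (44454571 to 44470498, minus strand, ENSMUSG00000041231). Ublcp1 had 9.26, 6.93 and 9.37 CPM in control libraries at day 2, 12.6, 7.08 and 12.9 at day 10, 10.1, 5.93 and 10.3 at day 13, and 9.09, 6.64 and 9.68 after withdrawal. In miR-125b libraries Ublcp1 had 8.62, 7.34 and 9.06 CPM at day 2, 4.79, 5.78 and 4.0 at day 10, 7.67, 7.99 and 9.55 in continued, and 4.38, 6.93 and 5.6 in withdrawal libraries. Replicate 2 was the lowest control library in every condition, and that replicate alone made the withdrawal groups of the 2 arms overlap. The differences were -0.03 ± 0.25 at day 2, -1.16 ± 0.26 at day 10, -0.06 in continued and -0.59 in withdrawal libraries.

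**Figure D2:**
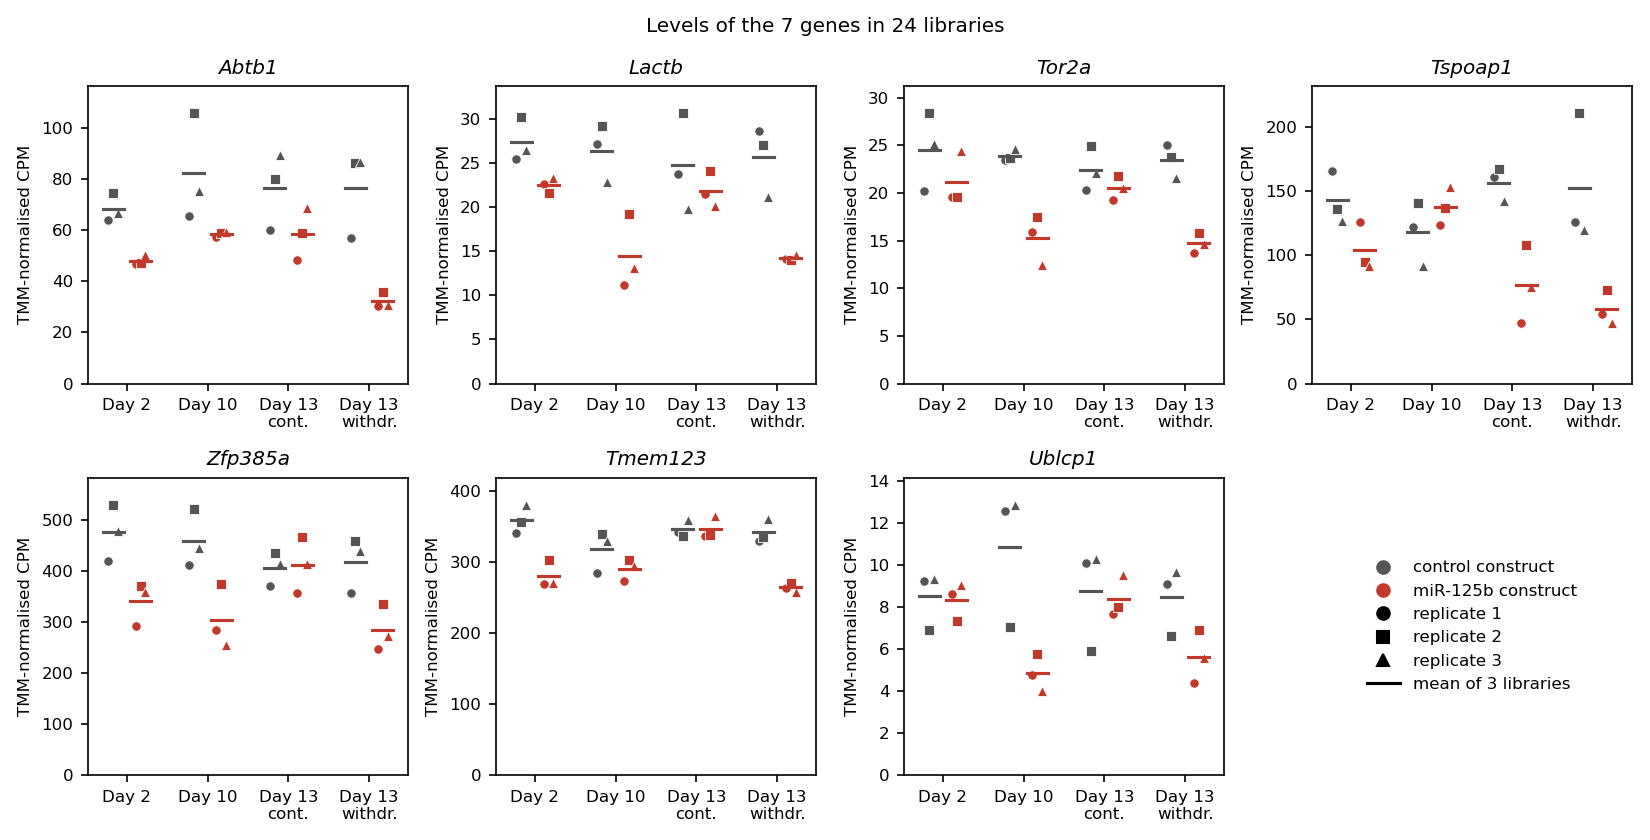
TMM-normalised CPM of each of the 7 genes in the 24 libraries (1 panel per gene, own y axis), by arm and condition, with markers for replicates 1 to 3 and a bar at each group mean. Lactb and Tor2a are lowest in miR-125b cells at day 10 and in libraries labelled withdrawal, and Tspoap1 in both day 13 groups of that arm.

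The comparison of miR-125b with control at day 2 shares no library with the later comparisons, but the choice of the 7 genes does not exclude it, so their direction and order there are a description. All 7 had a negative log2 difference, against 49.1% of the genes tested, and their median was -0.36 against 0.0038 over all genes. In 5 of the 7 (Abtb1, Lactb, Tspoap1, Zfp385a and Tmem123) every miR-125b library was below every control library, as for 6.23% of all genes. Within replicate numbers, 6 of the 7 were lower in 3 of 3 pairs, and Ublcp1 was the exception. Tor2a was so by little, with pairs of -0.04, -0.53 and -0.04. The share of all genes lower in 3 of 3 pairs is not given here, so this count is no result about the 7. In bulk libraries like these, fewer cells of a type and less RNA per cell cannot be told apart.

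None of the 7 passed edgeR's quasi-likelihood test at day 2 with Benjamini-Hochberg adjustment over the 13419 genes, nor did any other gene, so percent called was 0 in both directions. Adjusted p ran from 0.714 (Tmem123) to 1 (Ublcp1). Since the choice of the genes does not exclude day 2, the p-values and calls here are a description too and no independent support. At an unadjusted p under 0.05, edgeR counted 3 of the 7, Abtb1, Zfp385a and Tmem123, against 5.28% of all genes in either direction. DESeq2 called 1 of the 7, Tmem123, with an adjusted p of 0.0131, and 5 genes in all, or 0.0474% of those it adjusted. By size of the log2 difference, 4.78% of genes had a lower value than Abtb1, 5.3% than Zfp385a, 5.75% than Tspoap1, 8.42% than Tmem123, 11.9% than Lactb, 16.6% than Tor2a and 41.9% than Ublcp1.

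**Figure D3:**
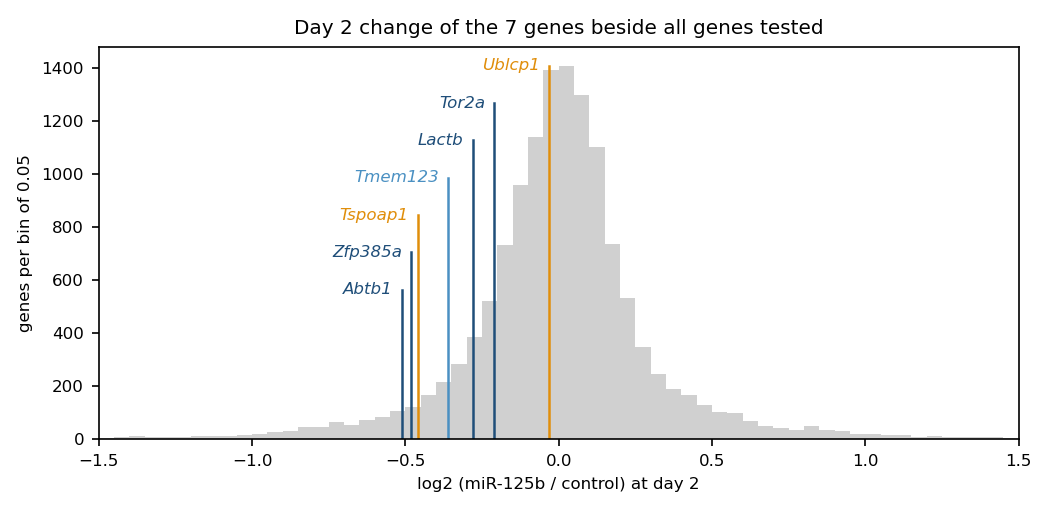
Histogram of the log2 difference of miR-125b from control at day 2 over the genes tested (x axis, log2, shown from -1.5 to 1.5; y axis, genes per bin), with a line at the value of each of the 7 genes, whose height carries no value. Abtb1, Zfp385a and Tspoap1 lie near -0.5 in the lower tail and Ublcp1 near the centre.

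Markers of other blood cells also differed at day 2. The 13 tested markers of granulocytes, macrophages and mast cells had a median log2 difference of 0.97, and 12 of 13 were positive. The sum over all 15 markers of that list was 170 to 262 CPM in miR-125b libraries and 114 to 135 in control libraries, without overlap. None of the 13 passed edgeR's adjusted test, DESeq2's test or an unadjusted p under 0.05. The 15 megakaryocyte markers had a median of 0.03. The part of these cells in the differences of the 7 genes was not tested.

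At day 10, one of the comparisons that chose the genes, 5 of the 7 (Abtb1, Lactb, Tor2a, Zfp385a and Ublcp1) were lower than control without overlap, as for 10.5% of all genes, and the median of the 7 was -0.59. Tmem123 and Tspoap1 overlapped control. The 13 tested granulocyte, macrophage and mast cell markers had a median of 2.29 there. The sums over all 15 markers of that list were 156 to 308 CPM in miR-125b and 98.2 to 356 in control libraries, which overlapped. EdgeR called 1 of the 13 higher, against 0.455% of all genes, and 6 with the replicate block, against 4.74%. Their part in the result was not tested.

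In the libraries labelled continued at day 13, Tspoap1 alone of the 7 was lower than control without overlap, as for 4.12% of all genes, and the median was -0.13. Abtb1, Tor2a and Tspoap1 were lower in 3 of 3 pairs, a count again without a share of all genes beside it. In those labelled withdrawal, 6 of the 7 were lower without overlap, as for 5.63% of all genes, with a median of -0.67, and Ublcp1 was the exception. Most megakaryocyte markers were also below control. Under the continued label their median was -0.40 and 14 of 15 were negative, against 53.8% of all genes. Under the withdrawal label it was -0.68 and 13 of 15 were negative, against 52.3%. Their sums overlapped control under both labels, at 2985 to 5881 against 3516 to 7652 CPM in continued libraries. In withdrawal libraries they were 3418 to 5709 against 3055 to 8136 CPM. None of the 15 passed edgeR's adjusted test or DESeq2's in either, and 0 and 1 reached an unadjusted p under 0.05, against 2.89% and 8.55% of all genes. With the replicate block 5 of the 15 were called lower under the withdrawal label, against 1.09% of all genes.

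The 13 tested granulocyte, macrophage and mast cell markers had medians of 0.41 under the continued and 0.46 under the withdrawal label, with 7 and 10 of 13 positive. The sums over all 15 markers of that list overlapped control under both. Under the continued label edgeR called none of the 13, and 5 reached an unadjusted p under 0.05, against 2.89% of all genes. DESeq2 called 1, against 0.0224% of the genes it adjusted in either direction. The replicate block called 2 higher, against 0.0149% of all genes. Under the withdrawal label edgeR called 1 higher, against 0.0447% of all genes, and 5 reached an unadjusted p under 0.05, against 8.55%. DESeq2 called 4, against 0.709% of the genes it adjusted in either direction. The block called 4 higher, against 0.768% of all genes. The part of either marker list in the values of the 7 genes was not tested.

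**Figure D4:**
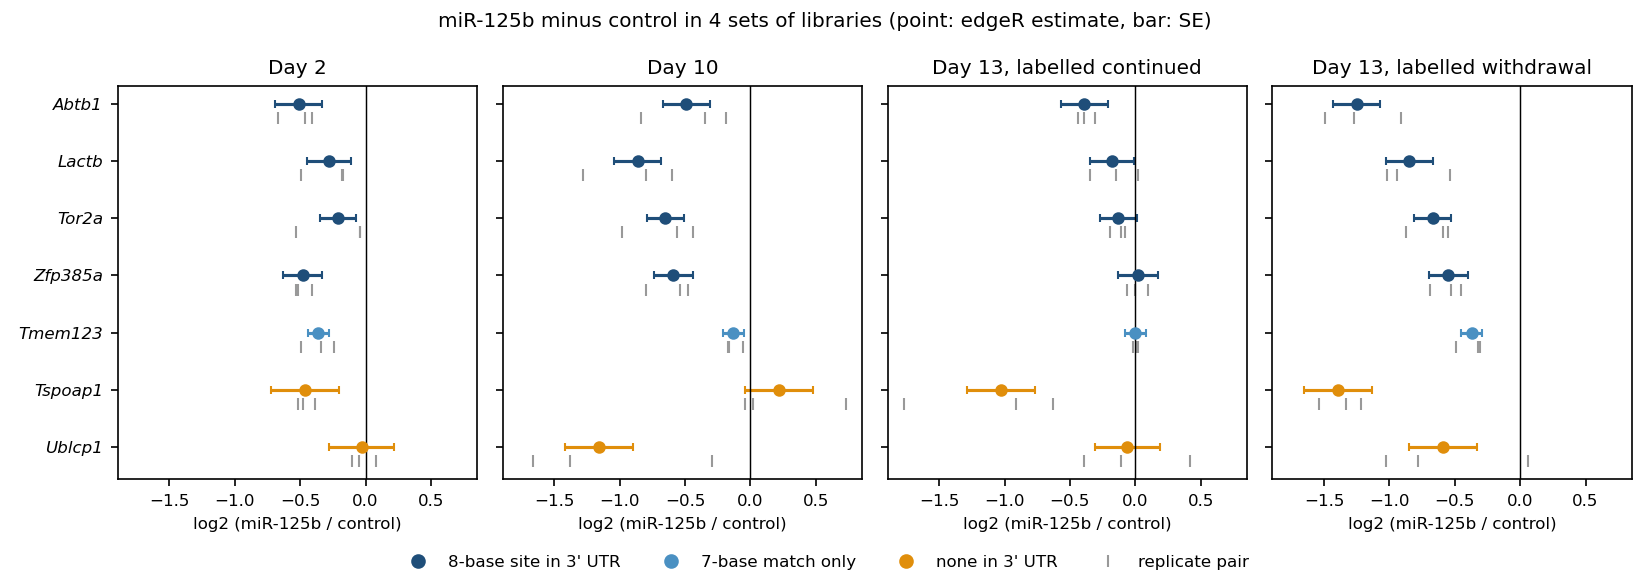
Log2 difference of miR-125b from control for each gene in 4 separate sets of libraries (points with SE bars; ticks are the 3 replicate pairs), coloured by the match in the 3′ UTR. At day 2 all 7 points are below 0, at day 10 Tspoap1 is above it, and in libraries labelled withdrawal all 7 are below it again.

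Split by site, the 5 genes with a 3′ UTR match had log2 differences of -0.51 to -0.21 at day 2, and the 2 genes without one had -0.46 and -0.03. At day 10 the ranges were -0.86 to -0.13 with a match, and -1.16 and 0.22 without. In withdrawal libraries they were -1.25 to -0.37 with a match, and -1.39 and -0.59 without. The genes without a match thus lay at the extremes of the set at day 10, in opposite directions, and Tspoap1 had the largest negative difference of the 7 in both day 13 comparisons. Arid3a has 6 matches, of which 2 are 8-base sites, in a 3′ UTR of 3082 bases, a length at which 29.1% held at least 1. It had -0.81 at day 2, a larger negative difference than any of the 7. This did not hold in the later comparisons. At day 10 Arid3a had -0.88 and Ublcp1 -1.16. Under the continued label Arid3a had -0.22 and Tspoap1 -1.03. Under the withdrawal label Arid3a had -1.15, Abtb1 -1.25 and Tspoap1 -1.39.

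Withdrawal against continued doxycycline was compared within each arm. In miR-125b cells, where this comparison also chose the genes, all 7 were lower in libraries labelled withdrawal, by -0.39 (Tmem123) to -0.86 (Abtb1), with a median of -0.53. The 2 labels did not overlap in 6 of the 7, as for 4.46% of all genes. Tspoap1 overlapped, since its replicate 1 was higher under the withdrawal label, 54.3 against 47.1 CPM. In control cells the differences were -0.05 to 0.06 with SEs of 0.08 to 0.26, and none of the 7 separated in the lower direction, as for 2.78% of all genes. The difference between the arms was not tested, because its libraries chose the genes.

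**Figure D5:**
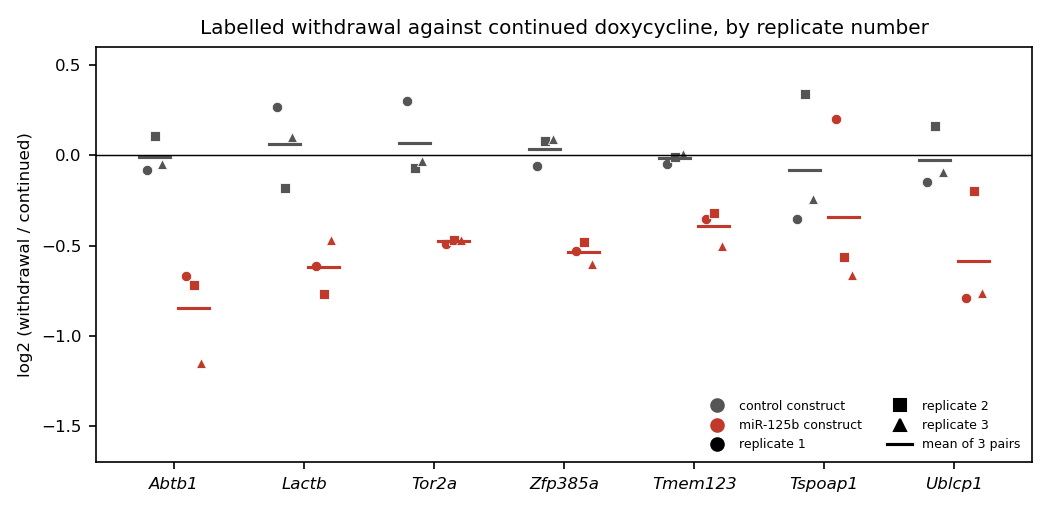
Log2 ratio of withdrawal to continued doxycycline for each replicate number, gene and arm, with a bar at the mean of the 3 pairs. The miR-125b pairs lie below 0 except replicate 1 of Tspoap1, and the control pairs spread around 0.

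Whether the 7 genes changed over time was tested in control cells, day 13 continued against day 2, with control libraries that also enter the miR-125b comparisons. Time in culture and length of doxycycline exposure (48 h against 13 days) cannot be told apart in this comparison. None of the 7 passed edgeR's adjusted test, while 0.142% of all genes were called lower and 0.216% higher. The adjusted p-values ran from 0.809 (Zfp385a) to 0.997 (Ublcp1), and none of the 7 reached an unadjusted p under 0.05, against 8.05% of all genes. With the replicate block 1 did, Zfp385a, which was lower in 3 of 3 pairs, against 13.8% of all genes, and its edgeR adjusted p was then 0.22. The largest value was -0.23 ± 0.15 for Zfp385a, and the others lay between -0.15 and 0.16 with SEs of 0.08 to 0.26. None of the 7 was lower without overlap, as for 6.92% of all genes.

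Other reported targets of miR-125b were read from a list of 42 genes, of which 34 were tested. At day 2, 27 of the 34 were negative with a median of -0.11, and edgeR's adjusted test called none. At an unadjusted p under 0.05 edgeR counted 8, against 5.28% of all genes in either direction. DESeq2 called 2, against 0.0474% of the genes it adjusted. The lowest p-values were those of Arid3a (-0.81 ± 0.16, edgeR adjusted p = 0.633) and of the kinase Map3k11 (-0.46 ± 0.10, adjusted p = 0.767). At day 10, 21 of the 34 were negative with a median of -0.14, and 10 reached an unadjusted p under 0.05 in edgeR, against 17.4% of all genes. EdgeR's adjusted test called 2 of the 34 lower against 0.417% of all genes, and DESeq2 called 4, against 4.66% of those it adjusted in either direction. The edgeR calls were Arid3a, with -0.88 ± 0.16 and an edgeR adjusted p of 0.023, and Lin28b, an RNA-binding protein of the fetal programme, with 34.7 ± 2.06 CPM against 51.9 ± 4.95 (SD, n = 3), a difference of -0.58 ± 0.11 and an edgeR adjusted p of 0.0262. Both calls were lost in 4 of the 6 fits that left out 1 library, in the fit to only the 6 libraries compared and in the fit without the miR-125b libraries labelled day 13. With the replicate number as a block, 4 of the 34 were called at day 10, against 3.89% of all genes.

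In libraries labelled continued, none of the 34 was called by edgeR or DESeq2 (0.0224% of all genes with the latter), none reached an unadjusted p under 0.05 (2.89% of all genes did), and the median was -0.01. In withdrawal libraries edgeR called 1 of the 34, Arid3a (-1.15 ± 0.16, adjusted p = 0.00435), against 0.0745% of all genes called lower, and the median was -0.22. That call was lost in the fit to only the 6 libraries compared and kept in the 6 fits that left out 1 library. The replicate block called 4 there, against 1.09% of all genes, and DESeq2 called 3, against 0.709% in either direction. At an unadjusted p under 0.05, edgeR counted 10 of the 34 in withdrawal libraries, against 8.55% of all genes in either direction.

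Relatives and partners of the 7 genes were read from a second list of 21, of which 16 were tested. These include other torsins (Tor1a, Tor1b, Tor3a, Tor4a), the torsin cofactor Tor1aip2, Tspo, which binds Tspoap1, and other phosphatases of the Ublcp1 kind (Ctdsp1, Ctdsp2, Ctdp1). EdgeR's adjusted test called none of the 16 in any of the 4 comparisons of miR-125b with control, while 1, 3, 0 and 2 reached an unadjusted p under 0.05, and their medians were 0.02, 0.02, 0.08 and -0.01. The share of all genes at that unadjusted p was 5.28% at day 2, 17.4% at day 10, 2.89% in continued and 8.55% in withdrawal libraries. In the last, 0.0447% were called higher. DESeq2 called 1 relative lower and 1 higher at day 10, against 4.66% of the genes it adjusted in either direction. The block called 3.89% of all genes lower and 4.74% higher there. With the replicate block, Ctdp1 was called lower at day 10 (-0.47 ± 0.13, edgeR adjusted p = 0.0322 with the block and 0.0847 without) and Tor3a higher (0.42 ± 0.13, edgeR adjusted p = 0.0304 with the block and 0.112 without). Tor3a was thus higher where Tor2a was lower, by estimates of 0.42 and -0.65.

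The 7 genes shared their profile over the 8 groups to different degrees. Over group means of log2 CPM, the 21 pairs had Pearson correlations of 0.26 to 0.999 with a median of 0.762, and over the 24 libraries of 0.113 to 0.900. The groups share depth and replicate numbers, and the genes were chosen on some of them, so these values are a description. Lactb and Tor2a were the most alike, with 0.999 over groups and 0.900 over libraries, and Lactb and Tspoap1 had 0.492 and 0.451.

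Among 9827 other genes with an average log2 CPM of at least 2, the genes most like each of the 7 over the 8 group means were also read out. The Src-family kinase Lyn and the receptor Cd96 were nearest to both Lactb (0.978 and 0.970) and Tor2a (0.986 and 0.979). Nearest to Zfp385a was Nrm (0.990), to Abtb1 Shpk (0.982), to Tmem123 Npc1 (0.973), to Tspoap1 Tmem250-ps (0.950) and to Ublcp1 Rufy1 (0.997). Over the 24 libraries these likenesses were lower, at 0.395 for Rufy1 with Ublcp1 and 0.720 for Nrm with Zfp385a. The gene nearest to the mean profile of the 7 was Lyn, with 0.982 over the 8 groups and 0.652 over the 24 libraries. These genes are the highest of 9827 correlations over 8 means, so high values come in part from the search. Nrm and Shpk were found with a seed match, and Lyn, Cd96, Npc1, Tmem250-ps and Rufy1 were not.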

How the data were processed

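RNA of 24 libraries was sequenced with Illumina, per the labels' protocols. The deposited table holds whole-number read counts per gene, made with fastp, HISAT2 2.0.5 and featureCounts on mm10, per the submitters' processing notes. The annotation release, strandedness and filters are not given in the sources used here. Reads of overlapping or near-identical genes may be split.

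Identifiers were matched to GENCODE M21 (GRCm38): 46574 of 47069 had a name, and at most 0.0306% of a library's counts lay on unmatched ones. One edgeR 4.0.16 quasi-likelihood model (R 4.3.3; filterByExpr, TMM factors 0.932 to 1.04, robust) had a coefficient for each of 8 groups, 16 residual degrees of freedom and two-sided p-values adjusted by Benjamini-Hochberg over 13419 genes, with a threshold of 0.05. SEs derive from the F statistic. TMM-scaled CPM were computed from the counts. Seed matches were searched in the longest annotated 3′ UTR of protein-coding transcripts. The statistics were tested on simulated data with independent libraries and a common dispersion. That test does not cover the likeness of same-numbered libraries described below.

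Replicates of a group differed by more than sampling noise, and each library was treated as 1 replicate, although the replicates may be technical. The replicate numbers come from the labels, which do not say what a number shares. By the check they pair the libraries: deviations from group means correlated from 0.163 to 0.781 (median 0.475) in all 84 same-numbered pairs, against a median of -0.304 in 168 others. The fit without the block is the one reported, so its SEs and p-values leave this pairing out.

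The members and lists were chosen with earlier results of these data known, and so was the rule for other named genes. Of each list and comparison it takes up to 4 genes past the threshold or, with none, those with the lowest unadjusted p, and for likeness the genes with the highest correlation to each member. DESeq2 1.42.0, other scalings and filters, the replicate block, only the 6 libraries compared and leaving out each library were tried as alternatives.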

Additional observations from a re-analysis of the deposited data

Results flagged for a closer look

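For 5 combinations of gene and time, every replicate number of 1 arm moved in the opposite direction to every replicate number of the other arm. They were picked out by that pattern, and the share of all genes that show it is not given here, so they are a description. These differences were not tested, and some of the libraries had served to choose the genes. From day 10 to day 13 with continued doxycycline, Tspoap1 had a mean log2 difference of -0.92 in miR-125b cells and 0.42 in control cells, which differ by -1.34. Over the same interval Zfp385a had 0.45 and -0.17, differing by 0.62, and Ublcp1 had 0.79 and -0.30, differing by 1.09. From day 2 to day 10, Ublcp1 had -0.78 in miR-125b cells and 0.31 in control cells, differing by -1.09. Tmem123 had 0.05 and -0.18 over that interval, differing by 0.23, but its miR-125b pairs were near 0, at 0.00 to 0.12. All 3 of the later intervals rest on the miR-125b libraries labelled continued.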

How the results depend on the processing

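With 3 libraries a group, calls depend on the estimate of spread: the common dispersion was 0.0591 without and 0.0169 with the replicate block. The replicate block moved 3 of the counts reported: target list genes lower at day 10 became 4 and in withdrawal libraries 4, and relatives lower at day 10 became 1. With the block the adjusted p of the 7 genes at day 2 ran from 0.111 (Zfp385a) to 0.986 (Ublcp1), so it called none of them, and besides Ctdp1, Tor3a and the marker lists it changed no other call. DESeq2 called 1 of the 7 genes at day 2, 2 target list genes at day 2, 4 at day 10 and 3 in withdrawal libraries, and 1 relative at day 10. A fit to only the 6 libraries compared called 0 target list genes at day 10 and 0 in withdrawal libraries. A fit without the miR-125b libraries labelled day 13, chosen after seeing the data, called 0 target list genes at day 10. Leaving out 1 library gave 0 to 7 target list genes at day 10 (0 without miR-125b replicate 1 or 3 or control replicate 1 or 3, and 7 without miR-125b replicate 2) and 0 to 1 relatives. Other size factors, library totals, no filter and the newer quasi-likelihood estimate moved none of these counts by over 1.5 times. Among the tested comparisons the direction changed for Ublcp1 only: at day 2 it ran from -0.16 to 0.051 when 1 library was left out, and in control cells from day 2 to day 13 from -0.09 to 0.25, with -0.0067 under library totals. Among the values given without a test, leaving out 1 library also turned the sign of some differences. Under the continued label this held for Lactb (-0.31 to 0.0049), Zfp385a (-0.079 to 0.11), Tmem123 (-0.035 to 0.031) and Ublcp1 (-0.28 to 0.068). For withdrawal in control cells it held for every one of the 7 genes but Tor2a, the widest range being that of Tspoap1 (-0.35 to 0.11), and Abtb1 there was also -0.02 under library totals and -0.0014 with the replicate block. At day 2 the other 6 genes were negative without any 1 library, Tor2a being nearest to 0 at -0.097 without control replicate 2. The causes were not tested.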
